A study of Mus musculus with 6 samples.

Results

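DEAD and DEAH box proteins are a large family of RNA-dependent ATPases. The 44 genes described here were taken by name alone, from rows that carry a Ddx or Dhx number, out of 21307 rows in the table. Such a name does not show that a gene encodes an RNA helicase, and Ddx11 among them is a DNA helicase. The pattern matched 54 rows, and 10 of them, mostly of the spliceosome, the innate sensors of viral RNA and the Y chromosome, were left out beforehand. The members were sorted by known role: 15 nucleolar, 2 mitochondrial, 3 of mRNA decay, 4 of mRNA export, 2 of translation, 7 of transcription and splicing, 3 with another defined role, 3 of the germ line, and 5 to which no role was assigned. No library has values of its own. The table gives 1 FPKM value (sequenced fragments scaled to transcript length and library size) per gene and condition, so every difference below is a size without a replicate error or a test.

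The cells were bone marrow B cells of pre-tumoral mice, 6 to 8 weeks old and of a C57BL/6 x 129S1/SvlmJ background, grown with interleukin 7 at 5 ng/ul. All 6 libraries carry the Eµ-myc transgene, which places Myc under an immunoglobulin enhancer, together with loxP-flanked Prmt5 alleles and CreER, a Cre recombinase that tamoxifen activates. For 3 libraries the cells were given 50 nM 4-hydroxytamoxifen (4-OHT) for 24 h to delete Prmt5, an arginine methyltransferase gene, and 3 ethanol libraries are the control. Both were then washed and kept for 5 days more. The titles call the ethanol libraries WT and the 4-OHT libraries PT, and the design text speaks of wild-type mice, but the sample characteristics give all 6 the same genotype, and the table names its conditions for ethanol and 4-OHT. The promoter that drives CreER and the number of animals behind the libraries are not given in the sources used here, and no group received 4-OHT without the loxP-flanked alleles, so deletion of Prmt5 and exposure to 4-OHT or active Cre cannot be told apart.

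Helicases of this family bind RNA through paired helicase domains and use ATP to open short duplexes or to strip proteins from RNA. The family takes its name from a conserved stretch of aspartate, glutamate, alanine and either aspartate or histidine. Different members serve different steps in the life of RNA, from ribosomal RNA processing in the nucleolus through splicing and export to translation and decay, and rapidly growing lymphocytes need much of the nucleolar work because they build ribosomes at a high rate.

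Prmt5 stood at 41.6 FPKM under ethanol and 5.71 FPKM after 4-OHT, and Myc at 402 and 213 FPKM. The 7 B-lineage markers reported here, among them Cd79a and Pax5, summed to 1009 FPKM in ethanol and to 406 FPKM in 4-OHT, with 6 of them at least 1.5-fold lower and Rag1 near equal (29.3 and 28.7 FPKM). Markers of other marrow cells moved the other way. Their sums in ethanol and 4-OHT were 315 and 3015 FPKM for granulocytes (6 of 6 higher), 604 and 1337 FPKM for macrophages (6 of 6, without Lyz2), 30.9 and 507 FPKM for stromal cells (5 of 5) and 218 and 808 FPKM for megakaryocytes (4 of 4). Lyz2, also a macrophage marker, stood at 3835 FPKM in ethanol and is listed at 0 in 4-OHT. Its deposited log2 fold change is listed as 0 too, which these values do not give. Whether the 0 FPKM was measured is therefore unknown. With Lyz2 the macrophage sums were 4439 and 1337 FPKM, lower in 4-OHT through this gene alone. The 5 T-cell markers summed to 2.83 and 8.24 FPKM, and the 3 erythroid markers found to 0.188 and 0.341 FPKM. These lists moved together with every helicase result below, and their part in those results was not tested. In such bulk values fewer cells of a type and less RNA per cell cannot be told apart.

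Most helicase genes were expressed in these cells, at levels that spanned a wide range. Rows were compared if their 2 values averaged 1 FPKM or more and neither was 0, which 40 of the 44 members and 10856 rows of the table met. The same 40 members lay above the median level of all rows. Ddx5 was the most abundant, at 303 FPKM under ethanol and 238 FPKM after 4-OHT, followed by Ddx39b at 209 and 158 FPKM. Ddx17, Ddx3x, Ddx39, Ddx21 and Dhx9 had means between 67.6 and 90.0 FPKM. The lowest member compared was Ddx59, with a mean of 3.50 FPKM, and the median member had a mean of 21.9 FPKM. The 4 that were not compared were the germ-line genes Ddx4, Ddx25 and Ddx43 and the interferon-induced antiviral gene Ddx60, which stood just below the minimum with a mean of 0.882 FPKM.

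**Figure D1:**
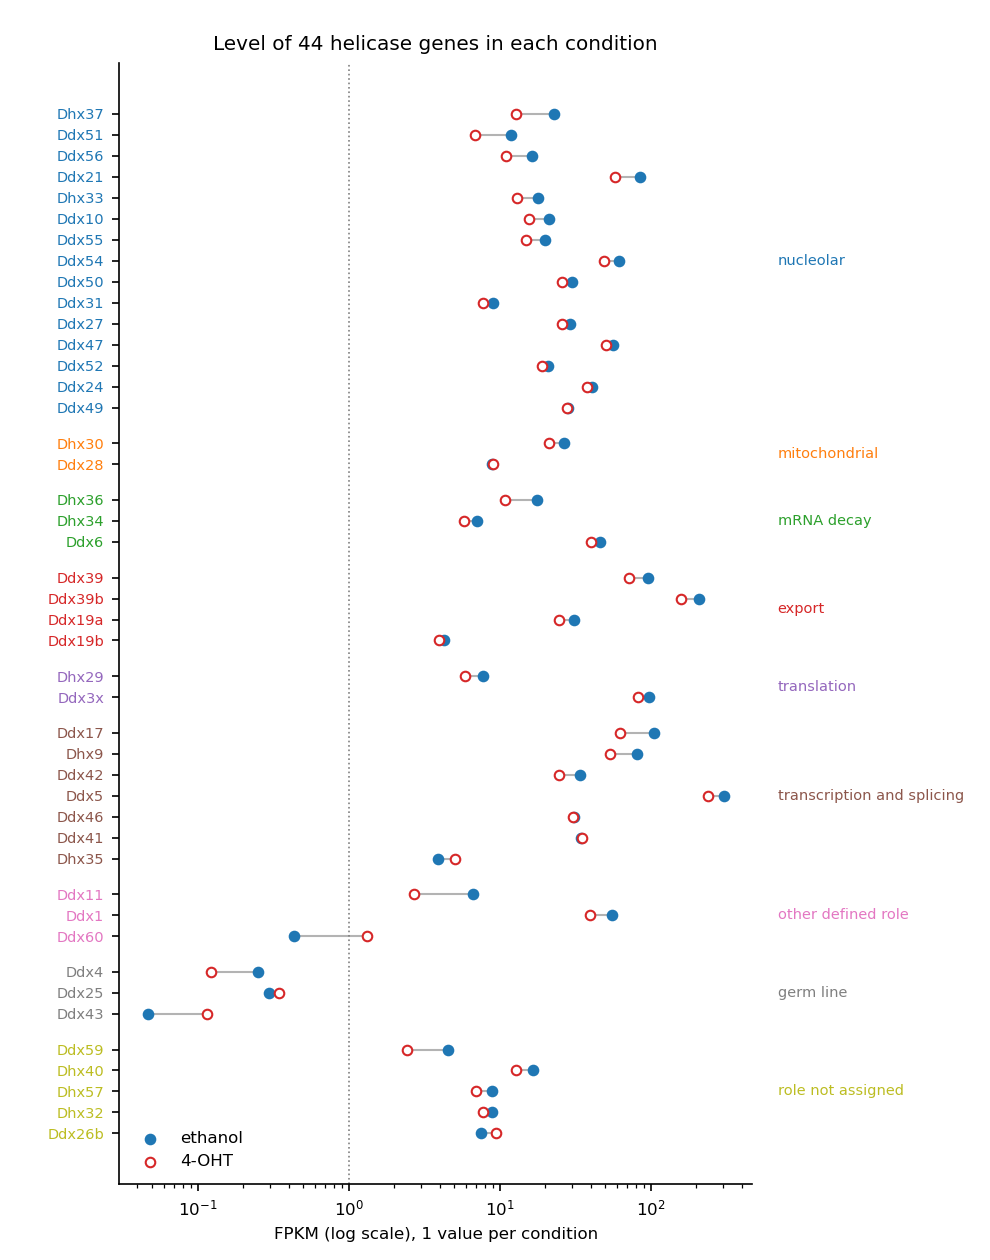
FPKM of the 44 helicase genes on a log axis, filled points for ethanol and open points for 4-OHT, grouped by role and ordered within a role by the ratio; the dotted line marks 1 FPKM. The open point lies to the left of the filled one for 36 of the 40 genes compared, and the 3 germ-line genes lie below 1 FPKM in both conditions.

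Most members of the family were lower in 4-OHT, mostly by less than 1.5-fold. The ratio used adds 1 to each FPKM value and takes the log2 of 4-OHT over ethanol, which understates the difference of genes with low values. Of the 40 members compared, 36 were lower in 4-OHT, whereas 55.1% of all rows compared were lower, and 4 were higher (44.9% of all rows). Their median log2 ratio was -0.33, and that of all rows was -0.07. Differences of at least 1.5-fold were seen in 7 members, all of them lower, or 17.5% of the members against 12.8% of all rows, which is close to the background. No member compared was at least 1.5-fold higher, whereas 19.5% of all rows compared were. Ddx60, below the minimum level and so not counted, stood at 0.437 FPKM under ethanol and 1.33 FPKM after 4-OHT. The middle 50% of the members' ratios lay between -0.45 and -0.17, while those of all rows ran from -0.39 to 0.40.

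Abundant genes leaned lower in the whole table, so members were also set beside rows of like level. Of the 26 members with a mean between 10 and 100 FPKM, 25 were lower, with a median of -0.35, against 59.6% of the 5425 rows in that range, with a median of -0.13. In this range 4 members were at least 1.5-fold lower, or 15.4%, against 13.5% of rows. The 12 members between 1 and 10 FPKM were less uniform, with 9 lower and 3 higher and a median of -0.21. Of the 4872 rows in that range 49.5% were lower, with a median of 0.01. At least 1.5-fold lower were 3 of these members, or 25%, against 11.4% of those rows. Summed over the 40 members, the values came to 1725 FPKM under ethanol and 1341 FPKM after 4-OHT, or 77.8% of the ethanol sum, while the sum over all rows compared was 104% of it. Ddx5 made up 17.6% of the helicase sum in ethanol and 17.8% in 4-OHT. Without it the 4-OHT sum was 77.5% of the ethanol sum, so the decrease did not rest on the most abundant gene.

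**Figure D2:**
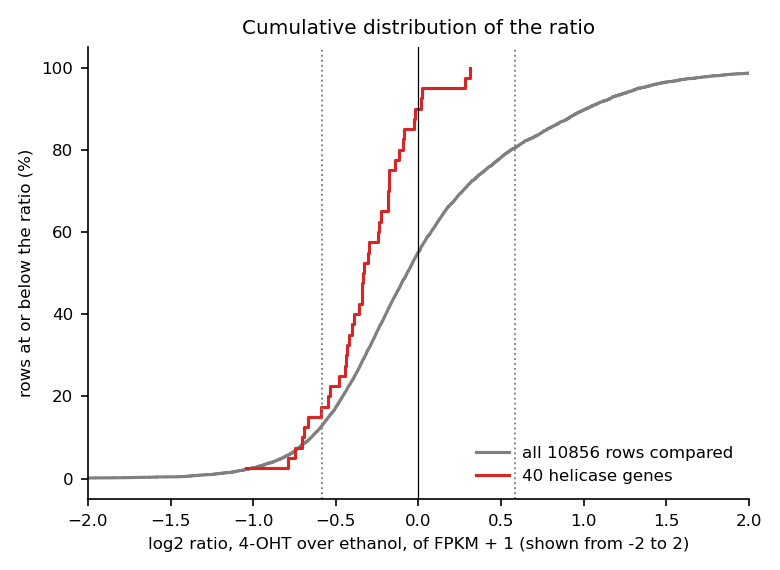
Cumulative share of rows (%) against the log2 ratio of 4-OHT over ethanol, in red for the 40 helicase genes and in grey for all 10856 rows compared; the dotted lines mark 1.5-fold and the axis is shown from -2 to 2. The curves nearly meet at 1.5-fold lower (17.5% and 12.8%) and part on the right, where the helicases end at 0.31.

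All 15 nucleolar helicases among the 44 members kept were lower in 4-OHT (14 with quantile normalization, where Ddx49 was higher). Their median log2 ratio was -0.33, but the size ranged from next to nothing to 1.73-fold. Of all rows compared 55.1% were lower, and of the 25 helicases outside the nucleolar role 21 were lower, with the same median to 2 decimals. The largest difference was that of Dhx37, at 23.0 FPKM under ethanol and 12.9 FPKM after 4-OHT (log2 ratio -0.79, chromosome 5, 125894774 to 125914418 on mm9). Dhx37 acts in the small ribosomal subunit precursor, where it helps to release the U3 small nucleolar RNA. A lower ratio was found in 5.71% of all rows compared. Ddx51, a factor of the large subunit, stood at 11.9 and 6.90 FPKM (log2 ratio -0.70, chromosome 5, 111082470 to 111089515). These 2 were past 1.5-fold, 13.3% of the 15 and close to the 12.8% of all rows. By the log2 fold changes of the authors' deposited table the count was 3, with Ddx56. With median-of-ratios scaling it was 4, with Ddx56 and Ddx21 (both -0.60). The share of all rows at least 1.5-fold lower rose too, to 16.04% by the deposited fold changes and to 15.7% with the scaling.

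The other helicases of small subunit assembly were closer to equal. Ddx10 stood at 21.2 FPKM under ethanol and 15.6 FPKM after 4-OHT, Ddx47 at 55.9 and 50.7 FPKM, and Ddx52 at 20.8 and 19.1 FPKM. Ddx49 was at 28.4 and 27.9 FPKM, 1.02-fold lower, and had a ratio of 0.01 with quantile normalization. Within the small subunit group the log2 ratios therefore ran from -0.79 for Dhx37 to -0.02 for Ddx49.

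Helicases of large subunit assembly showed a like spread. Ddx56 stood at 16.4 FPKM under ethanol and 10.9 FPKM after 4-OHT, 1.46-fold lower on the FPKM + 1 scale, while its log2 fold change in the authors' deposited table, without the added 1, was -0.59 and just past 1.5-fold. Ddx55 was at 19.95 and 15.02 FPKM and Ddx54, the most abundant of this group, at 61.7 and 49.0 FPKM, with log2 ratios of -0.39 and -0.33. Ddx27 (29.2 and 25.7 FPKM), Ddx31 (8.95 and 7.80 FPKM) and Ddx24 (40.5 and 37.9 FPKM) were lower by 1.07-fold to 1.13-fold. Large and small subunit helicases did not separate: each group held a gene past 1.5-fold and a gene within 1.1-fold of equal.

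Among helicases tied to ribosomal RNA synthesis, Ddx21 was the most abundant nucleolar member, at 84.7 FPKM under ethanol and 58.1 FPKM after 4-OHT (log2 ratio -0.54). It binds ribosomal RNA and small nucleolar RNAs and works beside RNA polymerase I. Its paralog Ddx50, the next gene in the table, 13724 bases away on chromosome 10, stood at 30.2 and 25.7 FPKM (log2 ratio -0.23). The level of Ddx21 was thus 2.80 times that of Ddx50 in ethanol and 2.26 times in 4-OHT. Dhx33, which takes part in transcription of ribosomal DNA, stood at 17.9 and 12.9 FPKM (log2 ratio -0.44).

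**Figure D3:**
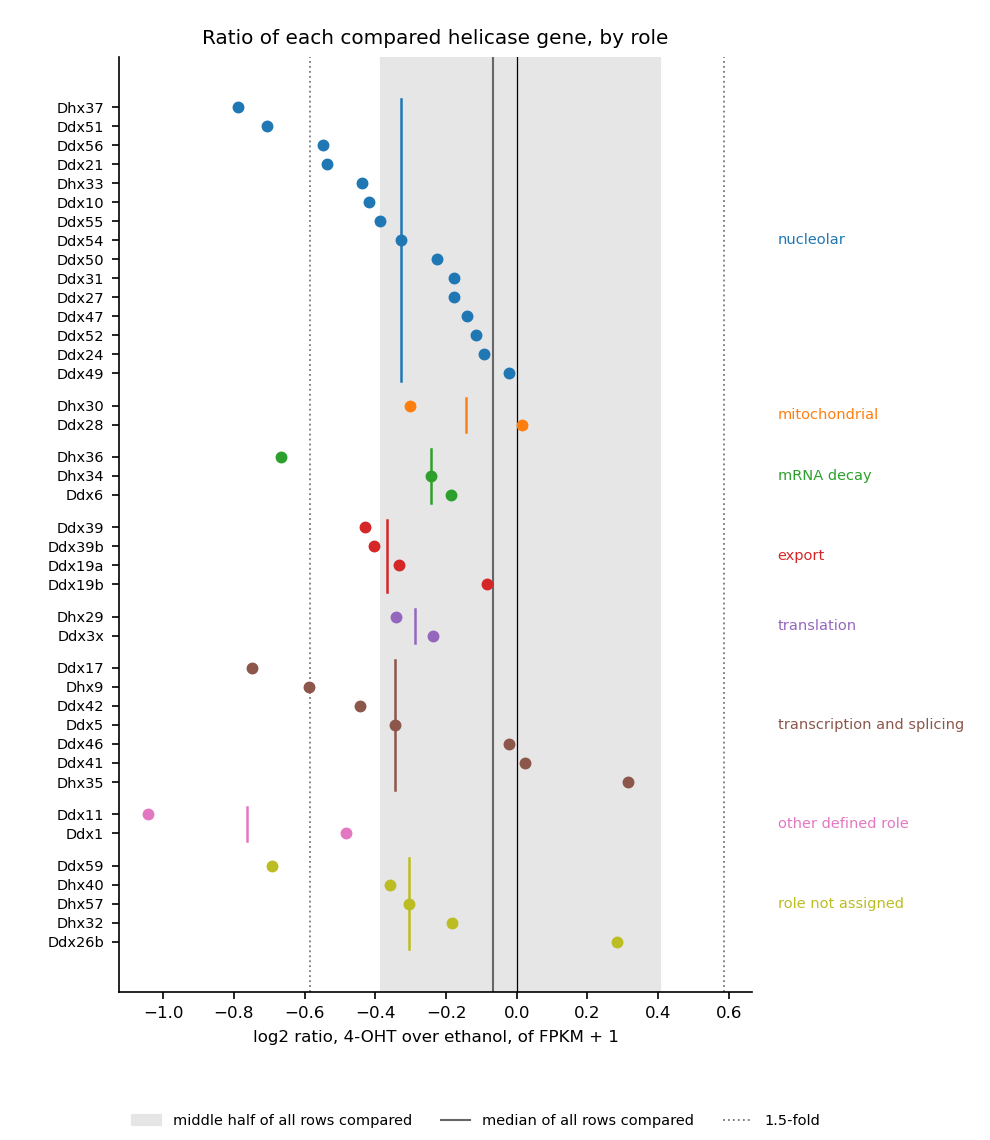
Log2 ratio of 4-OHT over ethanol (FPKM + 1) for the 40 helicase genes compared, by role; coloured bars are role medians, the grey band holds the middle 50% of all rows compared, the solid grey line is their median and dotted lines mark 1.5-fold. Most points lie to the left of 0, with Ddx11 at -1.04 the lowest and Dhx35 at 0.31 the highest.

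The mitochondrial pair differed from each other. Dhx30, which binds mitochondrial transcripts and is needed for assembly of the mitochondrial ribosome, stood at 26.4 FPKM under ethanol and 21.3 FPKM after 4-OHT (log2 ratio -0.30). Ddx28, a factor of the large mitochondrial subunit, was at 8.86 and 8.95 FPKM (log2 ratio 0.01). The value of Ddx28 was near equal in both conditions, and its sign was negative with median-of-ratios scaling (-0.04) and with quantile normalization.

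The 3 helicases of mRNA decay were all lower, beside 55.1% of all rows compared. Dhx36, which unwinds G-quadruplexes and promotes decay of messages with AU-rich elements, stood at 17.7 FPKM under ethanol and 10.8 FPKM after 4-OHT, a decrease of 1.59-fold (log2 ratio -0.67). Ddx6, which activates decapping and represses translation in P-bodies, was the most abundant of the 3, at 45.9 and 40.3 FPKM (log2 ratio -0.19). Dhx34, a factor of nonsense-mediated decay, stood at 7.09 and 5.83 FPKM (log2 ratio -0.24). Only Dhx36 lay past 1.5-fold, and 12.8% of all rows compared were at least 1.5-fold lower.

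The 4 export helicases were lower too, beside 55.1% of all rows compared. The most abundant pair of them stood in nearly the same proportion in both conditions. Ddx39b, which loads the TREX export complex onto spliced mRNA and also acts in splicing, had a log2 ratio of -0.40. Its paralog Ddx39, now named Ddx39a, was at 96.4 FPKM under ethanol and 71.3 FPKM after 4-OHT (log2 ratio -0.43). The level of Ddx39b was 2.17 times that of Ddx39 in ethanol and 2.21 times in 4-OHT. Ddx19a and Ddx19b remove export proteins from mRNA at the cytoplasmic face of the nuclear pore. Ddx19a stood at 31.2 and 24.6 FPKM (log2 ratio -0.33) and Ddx19b at 4.28 and 3.98 FPKM (-0.08).

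Reads of near-identical copies could have been split by the counting, so the paralog transcripts were compared in stretches of 50 bases. Ddx19a and Ddx19b, which lie 5362 bases apart on chromosome 8, shared 831 of them, 33.3% of those of Ddx19a and 12.4% of those of Ddx19b, and their separate values are therefore uncertain. Ddx39b and Ddx39, Ddx21 and Ddx50, and Ddx5 and Ddx17 shared 0. The loci of 8 members are shared with another row, whose reads could be counted for either gene. Those of the highest level were Bccip, in the locus of Dhx32, at 63.0 FPKM under ethanol and 44.4 FPKM after 4-OHT, and Cd97, in that of Ddx39, at 54.2 and 72.5 FPKM. Homer3, in the locus of Ddx49, stood at 7.10 and 10.2 FPKM, and Kdelr3, in that of Ddx17, at 0.452 and 4.25 FPKM. Morn2, in the locus of Dhx57, stood at 3.02 and 2.25 FPKM, beside 8.90 and 7.01 FPKM for Dhx57 itself. Rows sharing a locus with Ddx59, Ddx54 and Ddx19b stood at no more than 0.32 FPKM in either condition. The values of Dhx32, Dhx57, Ddx39 and Ddx49 are uncertain to that extent.

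Other genes of the same pathways were lower as well, and those of ribosome assembly more so than their helicases. Of 32 ribosome assembly genes that carry no helicase number, all were lower, and 15 (46.9%) by 1.5-fold or more, the median being -0.58 beside -0.33 for the 15 nucleolar helicases. They ran from Nop56, a core protein of box C/D snoRNPs, at 184 FPKM under ethanol and 82.2 FPKM after 4-OHT (-1.16), to Pno1 at 24.1 and 22.6 FPKM (-0.09), and Npm1 was the most abundant (1385 and 848 FPKM). Of 18 genes of mitochondrial ribosome assembly and RNA, all were lower and 8 by 1.5-fold or more, the median being -0.49. They ran from Ngrn (-0.72) to Mterfd1 (-0.12), and the most abundant, the RNA-binding gene Grsf1, stood at 47.0 and 31.0 FPKM. Supv3l1, also in this list, is itself an RNA helicase under another name (15.8 and 10.1 FPKM, -0.59). Of all rows compared 55.1% were lower and 12.8% by 1.5-fold or more. Whether helicases and partner genes differ could not be tested with 1 value per condition.

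For decay and export, helicases and partners had like medians, and the same shares of all rows stand as background. Of 24 genes of decapping, deadenylation and storage, 21 were lower, with a median of -0.24, the same to 2 decimals as that of the 3 decay helicases. None was 1.5-fold lower on the FPKM + 1 scale, whereas 3 (Dcps, Smg1 and Dcp1b) were by the log2 fold changes of the authors' deposited table, which were -0.59, -0.59 and -0.63. Dcps, the scavenger decapping enzyme, had the lowest ratio (-0.57), and Zfp36, an inducible factor that brings AU-rich messages to decay, had the highest mean level of both conditions and the highest ratio, at 59.4 FPKM under ethanol and 104 FPKM after 4-OHT (0.80). All 19 export genes were lower, with a median of -0.32, from Thoc6 of the TREX complex (-0.59) to the pore gene Nup98 (-0.02), and Thoc4, the TREX adaptor, had the highest mean level of both conditions (98.9 and 86.1 FPKM). At least 1.5-fold lower were 2 export genes (10.5%), and between 1 and 3 under the alternatives. Of 10 helicases of the superfamily that carry other names, 7 were lower, with a median of -0.15. Eif4a1, the helicase of translation initiation, was the most abundant of these, at 574 and 534 FPKM (-0.10). Dqx1 was the lowest (-0.76), and Ifih1, a sensor of viral RNA, the highest, at 1.03 and 2.35 FPKM (0.72).

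**Figure D4:**
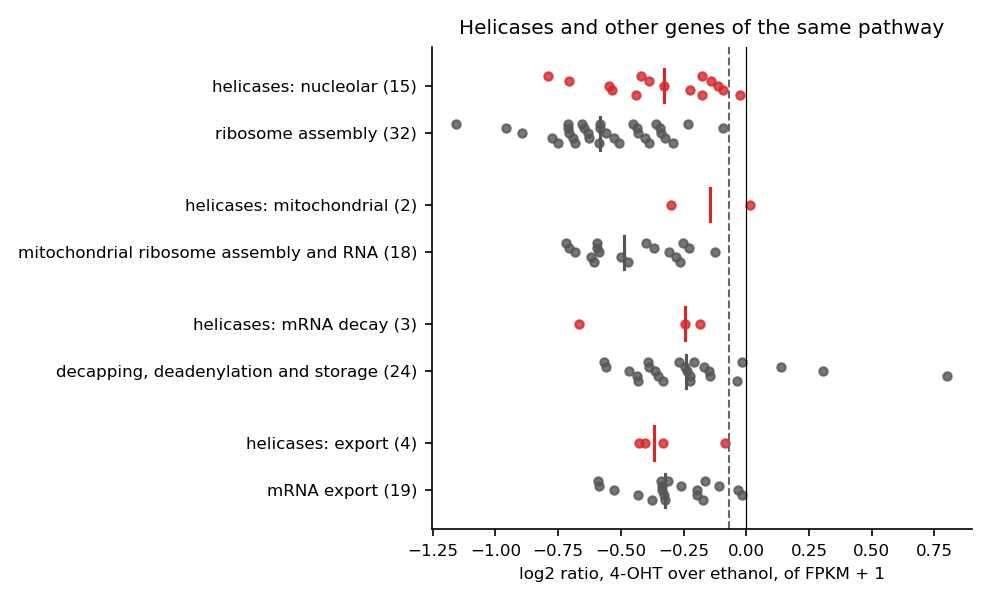
Log2 ratio of 4-OHT over ethanol (FPKM + 1) of helicases named Ddx or Dhx (red) and of other genes of the same pathway (grey). The number of genes is in brackets, bars are medians and the dashed line is the median of all rows compared. The grey points of ribosome assembly lie furthest left, with a median of -0.58.

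The 2 translation helicases were lower by similar amounts, and 55.1% of all rows compared were lower. Ddx3x, which helps ribosomes through structured leaders, stood at 97.5 FPKM under ethanol and 82.6 FPKM after 4-OHT (log2 ratio -0.24). Dhx29, which binds the small ribosomal subunit during scanning, stood at 7.73 and 5.89 FPKM (-0.34). Their levels differed widely while their ratios did not.

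Helicases of transcription and splicing were the most varied, with 5 lower and 2 higher, beside 55.1% of all rows lower. Ddx5 and Ddx17 are paralogs that act as transcriptional coactivators and in splicing and microRNA processing. Ddx17 stood at 106 FPKM under ethanol and 62.4 FPKM after 4-OHT, a decrease of 1.68-fold (log2 ratio -0.75), whereas Ddx5, in a row merged with a microRNA, had a ratio of -0.34. The level of Ddx5 was 2.87 times that of Ddx17 in ethanol and 3.82 times in 4-OHT. Dhx9, RNA helicase A, stood at 81.4 and 53.9 FPKM (-0.59, just past 1.5-fold) and did not reach 1.5-fold with quantile normalization (-0.55).

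Within the splicing members the ratios went from lower to higher. Ddx42 and Ddx46 both act with the U2 snRNP, yet Ddx42 was at 33.8 FPKM under ethanol and 24.6 FPKM after 4-OHT (-0.44) while Ddx46 was at 31.0 and 30.5 FPKM (-0.02). Ddx41, which is found in the catalytic spliceosome and has also been described as a DNA sensor, was at 34.7 and 35.2 FPKM (0.02). The signs of Ddx41 and Ddx46 turned under at least 1 alternative. Dhx35, another protein of the catalytic spliceosome, was the highest of all 40, at 3.89 and 5.09 FPKM (0.31).

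The lowest ratio of the family belonged to a DNA helicase. Ddx11, which acts in sister chromatid cohesion, stood at 6.66 FPKM under ethanol and 2.71 FPKM after 4-OHT (log2 ratio -1.04, chromosome 17, 66472860 to 66501508). It was the only member at least 2-fold lower, 2.5% of the members against 2.58% of all rows, and 2.21% of rows had a lower ratio. Ddx59, to which no role was assigned here, stood at 4.56 and 2.44 FPKM (-0.69). Ddx1, a subunit of the tRNA ligase complex, stood at 55.4 and 39.4 FPKM (-0.48). Ddx26b, now named Ints6l after its relation to an Integrator subunit, was higher, at 7.55 and 9.39 FPKM (0.28). Dhx40, Dhx57 and Dhx32 had ratios from -0.36 to -0.18.

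The 4 members below the minimum level are given as values alone. Ddx60 stood at 0.437 FPKM under ethanol and 1.33 FPKM after 4-OHT. Ddx4, Ddx25 and Ddx43, which are known from germ cells, stood at 0.251 and 0.123 FPKM, at 0.299 and 0.347 FPKM, and at 0.0467 and 0.116 FPKM. None of the 44 members was listed at 0.

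Because the members moved together, their promoters were searched for short motifs. The window was 250 bases before to 50 bases after each RefSeq start site on GRCm38.p6, and 37 of the 40 members compared were matched, with 48 promoters. Ddx6, Ddx11 and Ddx39 were not matched. The E-box CACGTG, which MYC with MAX binds among other factors, was found in 5 of the 48 promoters (10.4%), against 10.3% of 10086 promoters of genes named in the rows compared and 7.15% of all 32851 promoters. In the nucleolar members it was found in 1 of 17 promoters, that of Dhx33. The core of ETS factor sites, CCGGAAG on either strand, was found in 19 of 48 promoters (39.6%), against 17.6% and 8.86%, and in 9 of the 17 nucleolar ones. Some of these windows overlap, and by gene the ETS core was present in 17 of 37 members and in 1627 of 7887 genes of the rows compared.

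Of 5 motifs searched, the median ratio parted most for the CCAAT box (CCAAT on either strand): -0.14 in 17 genes with it and -0.40 in 20 without. This box was found in 41.7% of the 48 promoters, near the 37.7% of those of the rows compared. Medians with and without a motif were not computed over all rows, so the gap has no background beside it. For the E-box the medians were -0.36 in 5 genes with it and -0.30 in 32 without, and for the ETS core -0.34 in 17 and -0.27 in 20. The GC box (GGGCGG) and TATAAA, on either strand, were found in 56.2% and 8.33% of the 48 promoters, against 62.9% and 6.96% of those of the rows compared. A match is only a run of letters and no factor was measured at these sites.

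The 250 bases before the start of 4 members are shown 5′ to 3′, with E-box and ETS core letters in capitals: Dhx37 as the nucleolar gene with the lowest ratio, Dhx33 as the only nucleolar gene with an E-box, Ddx5 as the most abundant member, at the start site whose window holds both motifs, and Dhx35 as the member with the highest ratio.
Dhx37 (chr5:125434049-125434298, minus strand): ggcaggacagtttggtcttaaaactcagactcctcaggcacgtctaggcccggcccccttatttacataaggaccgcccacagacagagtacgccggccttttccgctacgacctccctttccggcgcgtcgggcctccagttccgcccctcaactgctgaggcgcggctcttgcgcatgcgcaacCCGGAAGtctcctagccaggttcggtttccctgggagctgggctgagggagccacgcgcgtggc
Dhx33 (chr11:71004433-71004682, minus strand): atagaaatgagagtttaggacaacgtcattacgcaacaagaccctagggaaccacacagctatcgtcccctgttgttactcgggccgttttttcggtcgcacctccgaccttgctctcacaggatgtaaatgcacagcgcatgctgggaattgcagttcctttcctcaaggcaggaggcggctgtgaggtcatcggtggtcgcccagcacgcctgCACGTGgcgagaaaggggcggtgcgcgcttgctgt
Ddx5 (chr11:106788908-106789157, minus strand): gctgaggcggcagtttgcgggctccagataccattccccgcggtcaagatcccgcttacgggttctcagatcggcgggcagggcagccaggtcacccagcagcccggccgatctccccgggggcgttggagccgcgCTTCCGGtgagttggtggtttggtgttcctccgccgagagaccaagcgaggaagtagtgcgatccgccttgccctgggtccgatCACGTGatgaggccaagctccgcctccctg
Dhx35 (chr2:158794557-158794806, plus strand): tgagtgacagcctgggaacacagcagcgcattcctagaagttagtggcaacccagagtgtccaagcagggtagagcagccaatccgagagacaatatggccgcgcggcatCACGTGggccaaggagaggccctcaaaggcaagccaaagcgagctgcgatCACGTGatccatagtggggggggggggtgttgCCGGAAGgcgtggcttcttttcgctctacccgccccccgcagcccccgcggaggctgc
Dhx37, with the lowest nucleolar ratio, has the ETS core and no E-box in this window, and Dhx35, with the highest ratio of the family, has both.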

How the data were processed

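RNA of 6 libraries, 3 ethanol and 3 4-OHT, was sequenced. The deposited table gives 1 FPKM value per gene and condition, computed by the authors. CASAVA, Cufflinks 2.1.1 and TopHat2 2.0.9 were used on build mm9, per the submitters' processing notes. How the libraries were combined was not given in the sources used here. The authors' deposited log2 fold changes were checked against the 2 FPKM values and matched their ratio within 0.01 in all 15756 rows above 0 in both. Without counts the depth is unknown and no interval can be printed.

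Ratios used a pseudocount of 1 and rows averaging 1 FPKM or more with neither value at 0. Locus lengths equalled RefSeq lengths in 6341 rows with starts counted from 0 and in 437 counted from 1, so 1 was added to starts. The linear model (limma), with or without a replicate block, could not be run on 1 value per condition. Every member of the assigned roles is named, and of the rest those past 1.5-fold or below the minimum; Dhx40, Dhx57, Dhx32, Ddx1 and Ddx26b were added after their values were seen. In each partner list the genes with the highest mean level and the lowest and highest ratios are named, Smg1 and Dcp1b being added after their values were seen. The members, roles and lists were chosen with earlier results of these data known. The motifs, the levels of paralogs and the comparison by abundance were chosen after the values were seen. Another marker of the B-lineage list is not reported here. The calculation of the ratio and its counts was tested on simulated data without noise, which does not show how reliable the counts are. Scripts ran in Python 3.11.15 with pandas 2.3.3, numpy 2.4.6 and, for plots, matplotlib 3.10.9.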

Additional observations from a re-analysis of the deposited data

How the results depend on the processing

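The alternatives were pseudocounts of 0.1 and 0.5, no filter, a minimum mean of 5 FPKM, median-of-ratios scaling, quantile normalization, the authors' deposited fold changes, and leaving out rows that merge several names. The count of nucleolar helicases at least 1.5-fold lower ran from 2 to 4, that of ribosome assembly genes from 14 to 18 and that of decapping, deadenylation and storage genes from 0 to 3. The count of helicases lower in 4-OHT ran from 33 (minimum of 5 FPKM, where 36 were compared) to 38 (median-of-ratios scaling). The count at least 1.5-fold lower ran from 5 to 9 under the same settings. Of all rows, 58.7% were lower under either setting, against 55.1% in the main one. At least 1.5-fold lower were 13.5% of all rows with the minimum of 5 FPKM and 15.7% with median-of-ratios scaling, against 12.8%. The background thus moved with the setting too. The count at least 1.5-fold higher was 0, and 1 with no filter, where Ddx60 enters. The median of all helicases, -0.33, was -0.34 both under the authors' deposited fold changes and under a pseudocount of 0.1, -0.30 with no filter, where 44 members enter, -0.39 with median-of-ratios scaling and -0.32 with quantile normalization. The nucleolar median, -0.33, was -0.39 and -0.31 under the last 2 of these. The median of all rows, -0.07 in the main setting, was -0.12 with median-of-ratios scaling and -0.11 with quantile normalization. It was 0 with no filter, and -0.08 both under the authors' deposited fold changes and under a pseudocount of 0.1. Both mitochondrial helicases were lower, 2 in place of 1, with median-of-ratios scaling and with quantile normalization, where Ddx28 turned; for these changes the cause was not tested. Of the 40 members compared, 4 changed direction under some alternative (Ddx28, Ddx41, Ddx46 and Ddx49), and 6 of the 7 past 1.5-fold stayed past it wherever they were compared, all but Dhx9. No paired analysis was possible because the deposited values are not split by library, and leaving out each library was not run for that reason. The table holds no counts, so the precision of low values such as those of Ddx59 and Ddx11 is unknown.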
